A study of Rattus norvegicus with 20 samples.

Results

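Ovaries of rats whose mothers had eaten a mixture of brominated flame retardants at 20 mg per kg body weight per day were set against ovaries of rats whose mothers had eaten the same feed without it. The 10 arrays were taken by the dose in the sample titles, out of 20 in the series. The animals were daughters of Sprague-Dawley dams that received the diet from at least a week before mating until weaning on postnatal day 21, and they were killed on postnatal day 46. All 20 daughters were thus exposed through the mother, or were controls, and none was dosed directly per the labels. The middle dose came from a diet of 250 mg of mixture per kg, and the control diet held 0 mg. Of the mixture, DE-71 made up 52.1%, BDE-209 made up 44.2% and DE-79 made up 0.4%; these are polybrominated diphenyl ether products, and the remaining 3.3% was hexabromocyclododecane. There were 5 animals at 20 mg/kg/day and 5 at 0 mg/kg/day. A lower dose of 0.06 mg/kg/day, from 0.75 mg per kg of diet, had 4 arrays, and a higher dose of 60 mg/kg/day, from 750 mg per kg of diet, had 6. RNA came from entire ovaries, so fewer cells of a type and less RNA per cell cannot be told apart in any value below.

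Ovarian follicles consist of an oocyte enclosed by granulosa cells, which make inhibins, activins, anti-Müllerian hormone and oestradiol, and by an outer layer of theca cells that supply androgens. After ovulation the emptied follicle becomes a corpus luteum, which makes progesterone, and macrophages, vessels and a collagen-rich stroma fill the space between. Polybrominated diphenyl ethers are fat-soluble, are passed to young through the placenta and milk, and are known in rodents to lower circulating thyroxine and to turn on liver enzymes of the receptors CAR and PXR. Postnatal day 46 in the rat falls in the period of the early oestrous cycles, when single animals can be at different cycle stages.

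Expression was measured on 1-colour Agilent arrays, on which labelled RNA binds to a probe for each transcript and the spot's brightness is read. A level below is the log2 of the processed spot signal minus the log2 of the 75th percentile of its array, so 0 is a gene as bright as that percentile and each step of 1 is a doubling. Levels of different genes rest on different probes and are not set against each other. On these 10 arrays the 75th percentile lay between 1241 and 1737 signal units. Between 77.1% and 83.4% of spots were well above background. All 9 measured markers of ovarian identity, among them Inha, Fshr, Cyp11a1, Star, Wt1 and Gata4, were well above background on all 10 arrays. Their levels were not equal between doses: 8 of 9 had a lower mean in exposed ovaries, with a median difference of -0.21 log2. Within slides 1, 2 and 3, described next, the median was 0.10, -0.10 and -0.43.

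The arrays came on 3 slides. Exposed replicate 1 lay on slide 1, replicate 2 on slide 2 and replicates 3 to 5 on slide 3, while control replicates 1 and 2 lay on slide 1, replicate 3 on slide 2 and replicates 4 and 5 on slide 3. The first principal component of the 10 arrays held 28.3% of the variance, of which 88.7% lay between slides and 0.660% between doses. The second held 20.9%, with 50.7% between slides and 26.7% between doses. Values within slides are printed for many of the results, and the plot of list medians shows them for every list; slide 2 offers a single animal of each dose. The 3891 probes that were not well above background on any array also differed: their median level was -9.23, -9.28, -8.84, -9.02 and -8.75 on the exposed arrays and -9.42, -9.31, -9.29, -9.64 and -9.31 on the control arrays. Every exposed array had a higher floor than every control array. The part of that floor in the results for dim genes was not tested.

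The comparison asks whether exposure before weaning left a difference in the ovary of the young adult. No probe reached the threshold in limma, a linear model fitted to all 20 arrays: 0 of 23834 probes (0.0%) had a Benjamini-Hochberg adjusted p under 0.05, and the lowest was 0.934. At an unadjusted p under 0.05 there were 1088 probes (4.56%), a share below the threshold itself. Of these, 650 were higher (2.73%) and 438 lower (1.84%) in exposed ovaries. The count of 1088 became 574 without control replicate 1, 2173 without control replicate 3 and 1686 without exposed replicate 4. Of all probes, 57.8% lay above the control mean and 42.2% below, and all 5 exposed arrays lay above all 5 controls for 0.357% and below them for 0.235%, together 141 probes, against 603 with normexp background correction and 644 without control replicate 3. Among probes at an unadjusted p under 0.05, the share that was higher moved with the scaling. It was 59.7% as scaled here, 38.5% after quantile normalization and 73.7% with normexp background correction. Among 12838 genes, each read by its brightest probe, 407 were higher (3.17%) and 302 lower (2.35%) at that level, and 55.2% lay above and 44.8% below the control mean at any p. The genes named below had an adjusted p of 0.934 or more, and their values describe these 10 animals.

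All 5 exposed ovaries lay above all 5 control ovaries for 49 genes (0.382%) and below them for 44 (0.343%). Of these 93 genes, 7 differed by at least a doubling or halving of the mean level. How many genes would separate in this way without any effect of dose was not tested, so a lack of overlap only describes the animals. Over all genes the median difference was 0.02 log2 and the median size of a difference 0.13 log2. The 95% interval of a gene's difference reached 0.34 log2 to either side at the median, which is 1.27-fold.

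**Figure D1:**
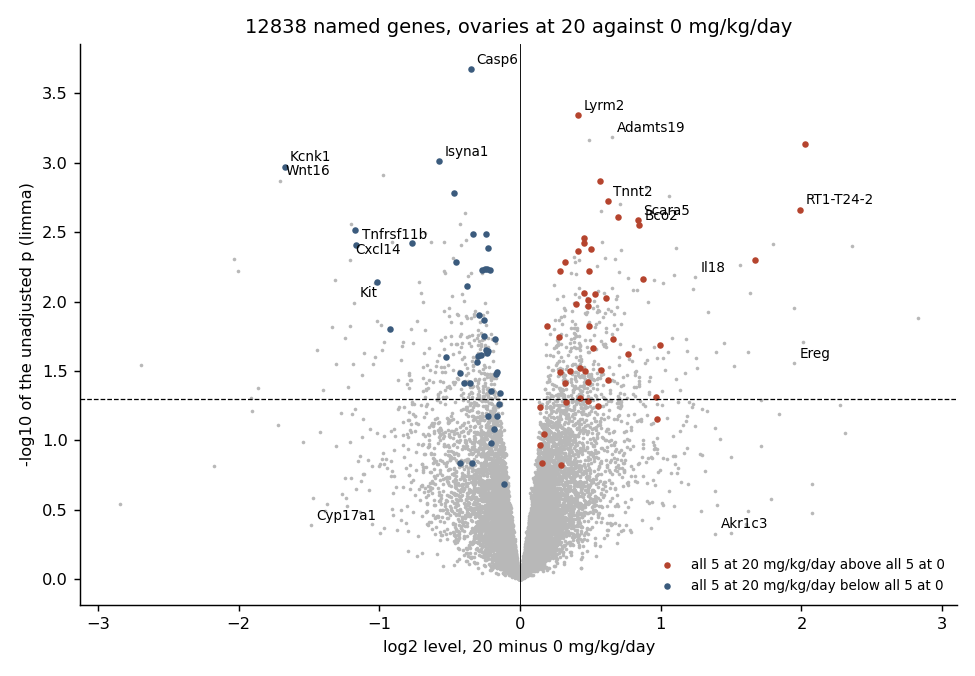
Each of 12838 points is a gene; the horizontal axis is the log2 level at 20 minus 0 mg/kg/day and the vertical axis the -log10 of limma's unadjusted p, with the dashed line at 0.05. The 49 and 44 coloured genes have exposed and control animals that do not overlap, and they sit mostly at differences well under 1 log2 while the widest differences on either side are grey, because the animals overlapped.

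Casp6, an executioner caspase, had the smallest p of all named genes. Its level was 0.25, 0.33, 0.16, 0.27 and 0.37 in exposed ovaries and 0.77, 0.59, 0.54, 0.71 and 0.52 in controls. The groups did not overlap, and the spread within each was small. The difference was -0.35 ± 0.08 log2 (SE, unadjusted p = 0.000213), or 1.28-fold lower, and it was -0.43, -0.21 and -0.35 within slides 1, 2 and 3. Isyna1, which makes inositol phosphate from glucose phosphate, read 2.72, 2.60, 2.70, 2.92 and 2.33 in exposed ovaries and 3.51, 3.04, 2.94, 3.37 and 3.27 in controls. Its highest exposed animal came just under its lowest control. The mean was -0.57 ± 0.15 log2 from the control mean.

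Kcnk1, a potassium channel of the leak type, had the largest of the lower values among genes without overlap that were well above background on all 10 arrays. It read -1.41, -1.35, -1.22, -3.83 and -2.74 in exposed ovaries and -0.27, -0.18, -1.15, -0.76 and 0.16 in controls. Exposed replicates 4 and 5, both on slide 3, carried much of the distance, and exposed replicate 3 came close to control replicate 3. The difference of -1.67 ± 0.43 log2 was 3.19-fold lower, with -1.19, -0.20 and -2.30 on slides 1, 2 and 3 and a range of -1.89 to -1.24 when single arrays, or 3 arrays described with Cyp17a1, were left out. Tnfrsf11b, which encodes osteoprotegerin, the decoy receptor of RANKL, read -3.08, -2.73, -3.32, -2.94 and -3.04 in exposed ovaries and -0.92, -2.72, -2.70, -1.67 and -1.30 in controls. Here the controls spread and the exposed animals did not: control replicates 2 and 3 lay just above the exposed group. It was 2.24-fold lower, at -1.16 ± 0.35 log2, and -0.03 on slide 2.

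Vgll4, a cofactor that competes with YAP for TEAD transcription factors, read 0.88, 0.99, 0.67, 1.05 and 0.82 in exposed ovaries and 1.73, 1.35, 1.26, 1.36 and 1.06 in controls, a difference of -0.47 ± 0.13 log2. Phlda1, an early-response gene linked to cell death, was at -0.77 ± 0.23 log2, and Efs, an adaptor of the Cas family, at -0.53 ± 0.22, both without overlap. Slc25a53, a mitochondrial carrier, was well above background on 1 of 5 exposed arrays, so its difference of -1.17 log2 is read mostly against background. For Efs 1 animal set much of the distance, since control replicate 1 read 0.80 and the other controls ran from -0.46 to -0.10. Wnt16, a secreted Wnt ligand, was not well above background on any exposed array and was so on 4 of 5 control arrays. Its mean was lower in exposed ovaries (adjusted p = 0.934 in limma). The control mean holds a value not well above background too, so no size is given. Its control values ran from -9.10 to -5.53, and the lowest of them was under all but 1 of the exposed values.

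Lower values were also seen, with overlapping groups, for Cyp20a1, St7l and C1qtnf4, at -0.42, -0.39 and -0.68 log2. Bcl2l15 and Ly49i4 lay lower too, but most of their exposed values were not well above background, so no size is given. Bcl2l15, a relative of Bcl2, was well above background on 2 of 5 exposed arrays and 5 of 5 controls. Ly49i4, a natural killer cell receptor from a family of near-identical copies, was so on 1 of 5 exposed arrays and 5 of 5 controls, and its probe may read relatives.

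On the other side, Lyrm2, a mitochondrial protein of the LYR motif family, had the smallest p among higher genes. It read 0.97, 0.75, 0.67, 1.07 and 0.78 in exposed ovaries and 0.31, 0.41, 0.56, 0.28 and 0.62 in controls, a difference of 0.41 ± 0.10 log2. Tnnt2, the troponin T of heart muscle, read 1.54, 1.73, 1.63, 1.58 and 1.31 in exposed ovaries and 0.77, 0.81, 1.21, 0.84 and 1.04 in controls. Its groups were separate on each slide, at 0.75, 0.52 and 0.57 log2 on slides 1, 2 and 3, with 0.62 ± 0.17 in all. Wdr82, a subunit of the SET1 histone methyltransferase complexes, stood at 0.70 ± 0.20 and Amph, the membrane-bending protein amphiphysin, at 0.57 ± 0.15, both without overlap.

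Scara5, a ferritin receptor, read -0.49, -0.86, -0.78, -0.96 and -0.91 in exposed ovaries and -2.52, -1.73, -1.11, -1.76 and -1.06 in controls. The exposed animals lay within a narrow band above a wide control group, and the difference was 0.84 ± 0.24 log2, or 1.78-fold. Bco2, which cleaves carotenoids, read -0.24, -0.52, -0.27, -0.50 and -0.45 in exposed ovaries and -1.87, -1.14, -1.10, -1.04 and -1.07 in controls, 1.80-fold higher at 0.85 ± 0.25 log2. Aadat, an enzyme of tryptophan and lysine breakdown, read -0.29, 0.17, -0.01, -0.39 and 0.17 in exposed ovaries and -1.10, -0.83, -0.52, -2.07 and -0.80 in controls. Its mean was 1.99-fold higher, at 1.00 ± 0.39 log2, although exposed replicate 4 and control replicate 3 lay close together.

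RT1-T24-2, a class I histocompatibility gene, read -3.10, -4.74, -6.07, -5.87 and -6.31 in exposed ovaries and -7.02, -7.11, -8.26, -6.68 and -6.96 in controls. Exposed replicates 1 and 2 stood far above the other 3, so that the difference of 1.99 ± 0.56 log2 was 3.96 and 3.53 on slides 1 and 2 and 0.73 on slide 3. The gene belongs to a family of near-identical copies that differ between chromosomes of the same colony, and its probe may read several of them. Ly49si1, of a family with the same limit, was at 0.97 ± 0.46 log2, Clec11a, a stem cell growth factor, at 0.77 ± 0.31, Pde6a, a phosphodiesterase subunit of photoreceptors, at 0.66 ± 0.25 and Or52u1, an olfactory receptor, at 0.97 ± 0.51. These 4 had no overlap and were well above background on all 10 arrays, and Or52u1 had an unadjusted p of 0.0701.

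With overlapping groups, Fas, a death receptor, read -5.49, -4.63, -5.43, -5.06 and -5.06 in exposed ovaries and -5.93, -5.34, -5.59, -6.53 and -5.84 in controls, and stood at 0.71 ± 0.20 log2. Adamts19, a matrix metalloprotease of the ADAMTS family, was at 0.65 ± 0.16, Hpdl at 0.89 ± 0.24, Smcr8, a partner of C9orf72 in autophagy, at 0.49 ± 0.12 and Ss18l1, a chromatin remodelling subunit, at 0.58 ± 0.16. Mybphl, a myosin binding protein, had an unadjusted p among the smallest but was well above background on 2 of 5 exposed and 1 of 5 control arrays, so no size is given.

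**Figure D2:**
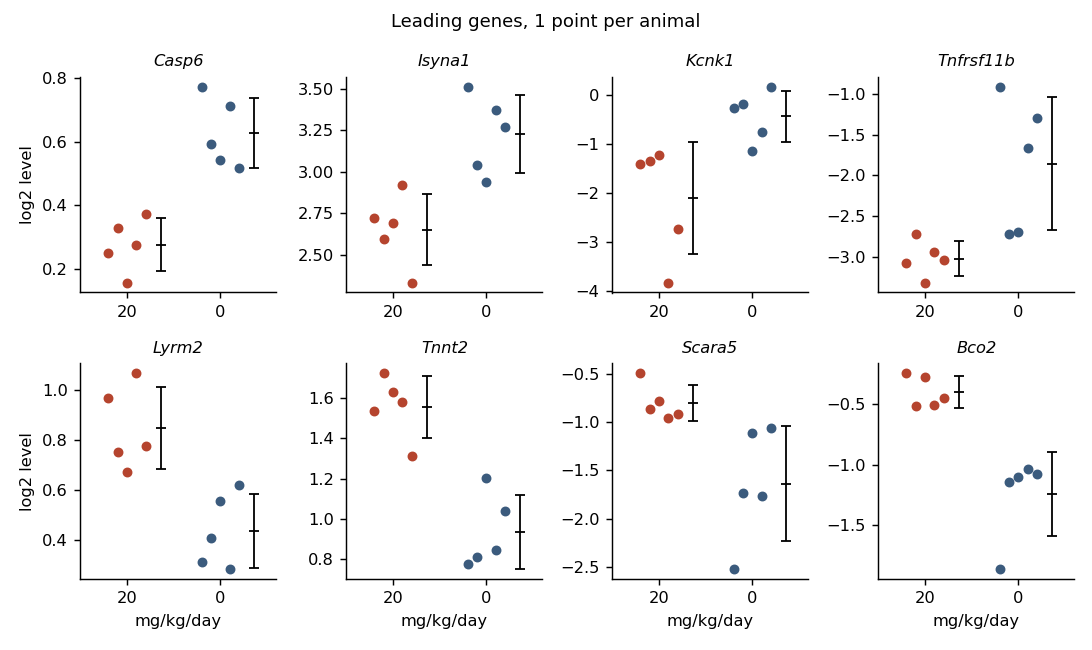
Each point is the log2 level of an animal at 20 mg/kg/day (red, left) or 0 mg/kg/day (blue, right), and the bar beside it is mean ± SD of the 5. Casp6, Isyna1, Kcnk1 and Tnfrsf11b are lower and Lyrm2, Tnnt2, Scara5 and Bco2 higher without overlap, and the controls spread more than the exposed animals in Tnfrsf11b, Scara5 and Bco2.

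Genes of the unfolded protein and heat shock responses were lower more often than higher. These encode chaperones, which fold proteins in the cytosol, the endoplasmic reticulum and mitochondria, and the factors that call for them. Of 19 measured genes, 13 lay below the control mean and 6 above, with a median of -0.14 log2 against 0.02 over all genes. At an unadjusted p under 0.05, 6 were lower and 2 higher, and 0 passed after adjustment. Over all genes 2.35% were lower and 3.17% higher at that level, the shares to set beside the list counts below. Without overlap the shares were 0.343% lower and 0.382% higher. The median was -0.24, -0.17 and -0.13 log2 on slides 1, 2 and 3 and stayed between -0.22 and -0.11 under the same omissions. On the array summary, the median deviation of the list's genes on each array, exposed animals stood at -0.05, -0.05, 0.00, -0.20 and 0.05 and controls at 0.13, 0.01, 0.11, 0.06 and 0.00, so the groups overlapped.

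The members are described by compartment. In the endoplasmic reticulum, Hspa5, which encodes the chaperone BiP, read 4.43, 4.22, 4.56, 4.27 and 4.12 in exposed ovaries and 4.58, 4.56, 4.53, 4.57 and 4.73 in controls. The controls lay close together and 4 of 5 exposed animals lay below all of them, with a difference of -0.27 ± 0.11 log2 (unadjusted p = 0.0207). Hsp90b1, the endoplasmic HSP90 also called GRP94, read 2.33, 2.93, 2.56, 2.51 and 2.46 in exposed ovaries and 3.00, 2.90, 3.08, 2.60 and 2.88 in controls, at -0.33 ± 0.14. Dnajb9, a co-chaperone of BiP, read -1.37, -1.35, -1.24, -1.64 and -1.46 in exposed ovaries and -1.04, -1.21, -1.18, -1.01 and -0.75 in controls, without overlap and at -0.37 ± 0.13. Ficd, which places AMP on BiP and was not on the list, was named by its size: it read -5.24, -5.56, -5.21, -5.47 and -5.34 in exposed ovaries and -5.19, -5.02, -5.04, -4.84 and -4.59 in controls, without overlap and at -0.43 ± 0.19. Pdia6 and Calr in the same compartment stood at 0.01 and -0.06 log2, Pdia4 at -0.13 and Herpud1 at 0.19. Xbp1, which encodes a factor that calls for chaperones, stood at 0.04.

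In the cytosol, Hsph1, a nucleotide exchange factor of HSP70, read -2.20, -2.26, -1.45, -1.70 and -2.22 in exposed ovaries and -1.64, -0.89, -1.59, -1.21 and -1.81 in controls, at -0.54 ± 0.19 log2. Dnaja1, a co-chaperone of HSP70, stood at -0.48 ± 0.17, Bag3, which links HSP70 to autophagy, at -0.25 ± 0.10, Hsp90aa1 at -0.34 ± 0.17 and Hspa8 at -0.21 ± 0.13, the last pair with an unadjusted p of 0.0662 and 0.122. Both partners of the mitochondrial chaperonin lay the other way. Hspd1, the chaperonin HSP60, read 6.10, 6.03, 6.10, 5.66 and 5.92 in exposed ovaries and 5.33, 5.83, 5.96, 4.95 and 5.66 in controls, at 0.41 ± 0.19. Hspe1, its lid HSP10, read 6.45, 6.53, 6.60, 5.93 and 6.49 in exposed ovaries and 5.70, 6.09, 6.49, 5.46 and 5.98 in controls, at 0.46 ± 0.21. On slide 2 this pair differed by 0.07 and 0.04 log2, and their unadjusted p values were 0.0416 and 0.0415.

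The promoters of these genes were read from RefSeq on build GRCr8, from 250 bases before the start of the gene to 50 after it, and 16 of the 19 genes had one. The endoplasmic reticulum stress element, searched on both strands as CCAAT, then 9 bases of any kind, then CCACG, is bound by NF-Y with ATF6. It occurred in 4 of the 16 promoters, Hspa5, Hsp90b1, Xbp1 and Calr, and in 22 of 33469 promoters in all (0.0657%). The heat shock element of the factor HSF1, searched on both strands as GAA, TTC and GAA with 2 bases of any kind between them, occurred in 5 of the 16, Hsph1, Hspa8, Dnaja1, Hspd1 and Hspe1, and in 267 promoters in all (0.798%). Genes with a match lay on both sides of the control mean and near it: of the promoters with the endoplasmic element 2 belong to genes lower at an unadjusted p under 0.05, and of those with the heat shock element 2 belong to such lower genes and 2 to higher ones. The 4 promoters below show both kinds, with the matched bases of each element in capitals, 5′ to 3′ in the direction of the gene. Hspa5 lies on chr3:38452766-38453065 (plus strand), Hsp90b1 on chr7:23012244-23012543 (minus strand), Hsph1 on chr12:10427118-10427417 (plus strand) and Hspe1 on chr9:64084077-64084376 (plus strand).
Hspa5: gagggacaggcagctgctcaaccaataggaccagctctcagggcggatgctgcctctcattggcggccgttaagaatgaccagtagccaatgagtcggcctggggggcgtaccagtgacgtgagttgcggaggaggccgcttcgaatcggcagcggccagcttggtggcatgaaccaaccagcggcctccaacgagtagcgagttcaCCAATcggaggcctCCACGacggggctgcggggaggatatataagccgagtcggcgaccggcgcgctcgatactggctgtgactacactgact
Hsp90b1: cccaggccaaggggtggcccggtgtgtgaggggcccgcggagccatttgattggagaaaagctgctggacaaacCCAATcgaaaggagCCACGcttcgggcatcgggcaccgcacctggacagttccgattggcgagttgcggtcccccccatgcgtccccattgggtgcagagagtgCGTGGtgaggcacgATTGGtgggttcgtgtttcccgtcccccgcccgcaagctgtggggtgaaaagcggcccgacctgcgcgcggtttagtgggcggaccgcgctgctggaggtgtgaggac
Hsph1: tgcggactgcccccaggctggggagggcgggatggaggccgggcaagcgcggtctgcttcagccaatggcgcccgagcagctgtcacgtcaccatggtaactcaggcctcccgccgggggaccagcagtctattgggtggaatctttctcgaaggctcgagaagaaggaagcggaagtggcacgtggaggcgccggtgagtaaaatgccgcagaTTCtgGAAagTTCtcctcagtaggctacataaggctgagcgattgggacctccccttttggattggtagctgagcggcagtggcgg
Hspe1: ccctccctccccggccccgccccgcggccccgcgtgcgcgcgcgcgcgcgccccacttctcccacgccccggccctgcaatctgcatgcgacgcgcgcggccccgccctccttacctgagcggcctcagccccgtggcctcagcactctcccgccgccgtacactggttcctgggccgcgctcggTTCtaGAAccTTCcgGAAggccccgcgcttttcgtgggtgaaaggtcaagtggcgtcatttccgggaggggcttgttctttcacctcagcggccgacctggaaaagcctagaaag
Counted from the gene's start, the element of Hspa5 begins at -43, and Hsp90b1 has one at -176 on the gene's strand and one at -72 on the opposite strand. The heat shock element of Hsph1 begins at -36 on the opposite strand. Hspe1 has overlapping matches on both strands at -65 and -60. Hspd1 and Hspe1 stand head to head and their windows share 211 bases, so the matches of Hspd1 are the same bases. A match of letters is not a bound site.

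**Figure D3:**
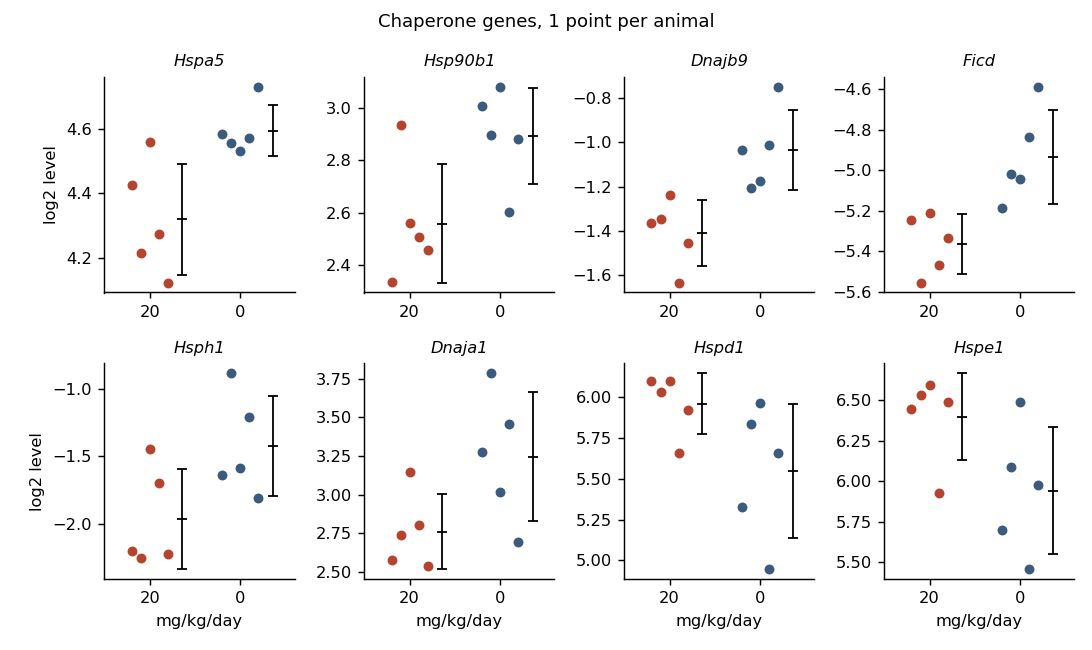
Log2 level of each animal at 20 mg/kg/day (red, left) and 0 mg/kg/day (blue, right) with mean ± SD of 5. Hspa5, Hsp90b1, Dnajb9, Ficd, Hsph1 and Dnaja1 have the lower mean at 20 mg/kg/day, Dnajb9 and Ficd without overlap, and Hspd1 and Hspe1 the higher mean.

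Granulosa genes were mostly lower in exposed ovaries. Of 15 measured genes of granulosa cells and growing follicles, 12 lay below the control mean, with a median of -0.31 log2. At an unadjusted p under 0.05, 4 were lower and 1 higher, beside 2.35% and 3.17% of all genes. Taken as the median deviation of the list on each array, the exposed animals stood at -0.07, -0.17, -0.13, -0.12 and -0.28 and the controls at 0.18, 0.09, 0.01, 0.21 and 0.22. The groups did not overlap on this summary. The median stayed between -0.35 and -0.24 under the same omissions, and was -0.13, -0.03 and -0.27 on slides 1, 2 and 3.

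Inha, the alpha chain of inhibin, which restrains pituitary FSH, read 5.36, 5.50, 5.56, 5.07 and 5.24 in exposed ovaries and 5.78, 5.61, 5.53, 5.73 and 5.83 in controls. Only exposed replicate 3 reached into the control range, and the difference was -0.35 ± 0.11 log2. Inhba, the beta A chain of inhibin A and activin A, read 3.88, 3.95, 3.87, 4.23 and 3.81 in exposed ovaries and 5.47, 4.72, 3.81, 5.00 and 4.71 in controls, at -0.79 ± 0.34. Control replicate 3 lay with the exposed animals here, so the difference on slide 2 was 0.14. Amh, the anti-Müllerian hormone of small growing follicles, read 0.87, 0.09, 0.30, 1.28 and -0.24 in exposed ovaries and 1.13, 1.65, 0.78, 1.87 and 1.69 in controls, 1.95-fold lower at -0.96 ± 0.38. Esr2, which encodes oestrogen receptor beta, was at -0.43 ± 0.19, with 1 of its 2 other probes of the opposite sign.

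Nr5a2, an orphan receptor needed for ovulation in mice, was the member higher at an unadjusted p under 0.05, at 0.42 ± 0.20 log2. It read 1.13, 0.96, 0.99, 0.54 and 0.77 in exposed ovaries and 0.52, 0.38, 0.68, 0.27 and 0.42 in controls. Gja1, the gap junction protein of granulosa cells, Hsd17b1, which makes oestradiol from oestrone, and Fshr, the FSH receptor, stood at -0.31, -0.38 and -0.35 with unadjusted p values of 0.117, 0.136 and 0.155. Inhbb and Kitlg stood at 0.00 and -0.06, so the list did not move as 1 block. For Kitlg 2 of 2 other probes had the opposite sign, and for Inhbb 1 of 1.

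Oocyte genes were lower in the mean, but this rested on slide 3. Of 16 measured genes 15 lay below the control mean, with a median of -0.44 log2 and 2, Kit and Zp3, lower at an unadjusted p under 0.05, while within slides 1, 2 and 3 the median was 0.11, -0.15 and -1.05. Control replicates 4 and 5, both on slide 3, stood at 0.77 and 0.65 on the array summary of this list, against -0.63 to -0.06 on the exposed arrays and -0.18 to 0.00 on the other controls. Zp3, a protein of the egg coat, read 0.16, -0.19, -0.06, -0.30 and -0.55 in exposed ovaries and -0.07, 0.26, 0.18, 0.79 and 0.75 in controls, at -0.57 ± 0.25. Gdf9, the growth factor by which the oocyte acts on granulosa cells, stood at -0.54 ± 0.32, and Zp1 and Zp2 at -0.51 ± 0.28 and -0.54 ± 0.32. Kit, the stem cell factor receptor, did not follow that pattern. It read -3.43, -4.06, -3.39, -2.50 and -4.13 in exposed ovaries and -1.84, -2.15, -3.50, -2.49 and -1.64 in controls, 2.26-fold lower at -1.18 ± 0.41, and its difference was -1.43, -0.56 and -1.27 on the 3 slides. Kit is also made by mast cells and by theca and interstitial cells.

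Steroid-making genes showed no shift as a list. Of 20 measured, 10 lay above and 10 below the control mean, the median was 0.01 log2, and 1 was lower at an unadjusted p under 0.05. That gene was Nr0b1, which encodes DAX-1, a repressor of steroidogenic transcription, at -0.58 ± 0.28. Hsd3b1, which makes progesterone from pregnenolone, read 7.37, 7.42, 7.35, 7.43 and 7.28 in exposed ovaries and 7.48, 7.47, 7.28, 7.15 and 7.29 in controls, so that its 95% interval ran from -0.15 to 0.22 log2. Cyp11a1, which cuts the cholesterol side chain, stood at -0.01 ± 0.16 and Star, which carries cholesterol into mitochondria, at 0.29 ± 0.24. The corpus luteum list had 13 of 19 above the control mean and a median of 0.14, with 0 members at an unadjusted p under 0.05, and the theca list 6 of 11 above and a median of 0.00.

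For Cyp17a1, by which theca cells make androgens, the animals split into high and low. It read 2.84, -3.45, 3.30, 3.37 and -3.49 in exposed ovaries and 3.47, 3.13, -2.62, 3.33 and 2.69 in controls. Exposed replicates 2 and 5 and control replicate 3 lay over 5 log2 below the rest, and the difference was -1.49 ± 1.76 log2. The same 3 arrays were the lowest of the 10 for Lhcgr, the receptor of luteinising hormone, which read -1.37, -3.01, -1.26, -0.74 and -3.36 in exposed ovaries and -1.19, -1.06, -3.19, -1.09 and 1.32 in controls. Without these 3 arrays Cyp17a1 stood at 0.02 log2. With them left out the count at an unadjusted p under 0.05 was 930 probes in place of 1088.

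Of 11 measured receptors of sex steroids and pituitary hormones, 4 lay above the control mean, with a median of -0.14 log2. Esr1, the oestrogen receptor of theca and stroma, stood at 0.52 ± 0.24, and Esr2 is given above. Of 12 measured genes of the response to the luteinising hormone surge 6 lay above the control mean, with a list median of -0.20, and of -0.70, 0.17 and 0.25 on slides 1, 2 and 3, and the single member at an unadjusted p under 0.05 was Ereg, the growth factor epiregulin. Ereg read -3.44, -2.18, -3.10, -4.81 and -3.64 in exposed ovaries and -5.57, -6.32, -3.04, -6.19 and -5.78 in controls, 3.86-fold higher at 1.95 ± 0.81 log2, with control replicate 3 above 4 of the exposed animals.

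Most genes of the extracellular matrix had a higher mean in exposed ovaries. Of 29 measured genes 25 lay above the control mean, with a median of 0.31 log2. At an unadjusted p under 0.05, 7 were higher and 1 lower, beside 3.17% and 2.35% of all genes. Higher without overlap were 4, beside 0.382% of all genes. Col15a1, a collagen of basement membranes, read 0.75, 0.88, 0.98, 0.82 and 0.61 in exposed ovaries and 0.23, 0.24, 0.43, 0.39 and 0.20 in controls. The groups did not overlap, and the difference of 0.51 ± 0.16 log2 was 0.51, 0.45 and 0.51 on the 3 slides. Col1a2, a chain of fibrillar collagen I, read 5.92, 6.12, 6.11, 5.84 and 6.17 in exposed ovaries and 5.38, 5.53, 5.78, 5.35 and 5.68 in controls, at 0.49 ± 0.16. Col1a1, its partner chain, read 4.82, 5.15, 5.17, 4.30 and 5.30 in exposed ovaries and 3.93, 4.02, 4.71, 3.78 and 4.29 in controls, 1.75-fold higher at 0.80 ± 0.27, with exposed replicate 4 inside the control range.

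Bgn, the small proteoglycan biglycan, stood at 0.41 ± 0.13 and Col3a1, the collagen of soft tissue, at 0.43 ± 0.20 log2, each without overlap. Nid2, a linker of basement membranes, was at 0.31 ± 0.11 and Thbs2, a thrombospondin that slows vessel growth, at 0.90 ± 0.37. The lower gene was P4ha1, a prolyl hydroxylase needed for collagen folding, at -0.42 ± 0.20, and it was -1.20 on slide 1 and near 0 on slides 2 and 3. Loxl1 and Fbln1, which act in elastic fibres, stood at 0.71 ± 0.34 and 0.61 ± 0.29, while Sparc, Fn1 and Col4a1 stood at 0.04, -0.12 and 0.09. The list median was 0.34, 0.14 and 0.38 on slides 1, 2 and 3 and 0.21 to 0.38 under the same omissions. The arrays overlapped on the list summary, at 0.13, 0.28, 0.09, 0.01 and 0.19 in exposed ovaries and -0.31, -0.21, 0.13, -0.27 and -0.13 in controls.

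Smooth muscle and pericyte genes lay higher in 13 of 15 cases, with a median of 0.34 log2 and 2 at an unadjusted p under 0.05. These were Acta2, the actin of smooth muscle, at 0.47 ± 0.22, and Tnnt2, given above as the troponin T of heart muscle. Tnnt2 was the only member without overlap. It was placed on the list with earlier results of these data known, so it is no independent mark of smooth muscle. On slide 2 the list median was 0.09 and without control replicate 1 it was 0.20. The array summary overlapped widely, at 0.05, 0.31, -0.04, -0.04 and 0.30 in exposed ovaries and -0.63, -0.37, 0.20, -0.40 and 0.25 in controls. Striated muscle genes, which mark other tissue, had 7 of 10 above the control mean and a median of 0.08, with Tnnt3 and Tnnt1, troponins of skeletal muscle, at 0.69 and 0.51, while Myh6 and Ckm stood at -1.23 and -1.02.

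Macrophage genes were higher in 19 of 20 cases, with a median of 0.42 log2. At an unadjusted p under 0.05, 4 were higher, beside 3.17% of all genes. All 20 were well above background on all 10 arrays. Aif1, a calcium-binding protein of macrophages, read 1.93, 1.87, 1.71, 1.32 and 1.75 in exposed ovaries and 0.92, 1.00, 1.43, 1.08 and 0.86 in controls, at 0.66 ± 0.25. Lyz2, lysozyme, stood at 0.52 ± 0.22 and Cd163, the haemoglobin scavenger receptor, at 0.89 ± 0.37. Ctss, a protease of the antigen-presenting pathway, stood at 0.46 ± 0.20 and Csf1r, the receptor through which macrophages survive, at 0.48 ± 0.23, both without overlap, Csf1r with an unadjusted p of 0.0516. Cd14 was the member below the control mean, at -0.10 ± 0.16.

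On the array summary of the macrophage list, exposed animals stood at 0.48, 0.40, 0.20, -0.13 and 0.24 and controls at -0.41, -0.12, 0.34, -0.24 and -0.52. Control replicate 3 lay above 3 of the exposed animals and exposed replicate 4 lay with the controls. The list median was 0.73, 0.12 and 0.46 on slides 1, 2 and 3. In both the matrix and macrophage lists, control replicate 3 was the highest control and exposed replicate 4 the lowest exposed animal. What part a differing number of macrophages had in other genes of these ovaries was not tested.

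Other immune lists were less even. Il18, an interleukin made by macrophages and epithelia, read 2.00, 2.16, 2.28, 1.40 and 2.11 in exposed ovaries and 0.17, 0.62, 1.67, 1.03 and 0.23 in controls, 2.37-fold higher at 1.24 ± 0.41 log2 with 1 pair of values crossing. Cxcl14, a chemokine of epithelia and fibroblasts, lay the other way, at 2.34, 2.32, 2.00, 3.44 and 2.21 in exposed ovaries and 4.92, 3.76, 3.57, 2.87 and 3.23 in controls, 2.31-fold lower at -1.21 ± 0.38. Of 29 measured chemokine and cytokine genes 17 lay above the control mean, with 1 higher and 1 lower at an unadjusted p under 0.05. Those counts are near the all-gene shares of 3.17% higher and 2.35% lower. Interferon response genes had 18 of 20 above the control mean and a median of 0.15, but 0.73, 0.05 and -0.06 on slides 1, 2 and 3, and 0 members at an unadjusted p under 0.05. Antigen presentation had 11 of 15 above, with RT1-T24-2 and RT1-DMb, a loading chaperone of class II molecules, at that level.

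T, B and natural killer cell genes had 6 of 15 above the control mean, with Ptprc, the common leukocyte antigen, at 0.41 and Prf1, the pore protein of killer cells, at -0.68 log2. Mast cell and granulocyte genes had 5 of 13 above, and Mcpt9, a mast cell protease, stood at -0.46 ± 0.14 without overlap. Endothelial genes had 3 of 17 above and a median of -0.11, with Cldn5, a tight junction protein of vessels, at -0.41. Erythrocyte genes had 1 of 7 above and a median of -0.41, and 0.44 on slide 2.

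Cell cycle genes were mostly slightly higher in exposed ovaries. Of 27 measured, 25 lay above the control mean, with a median of 0.16 log2, or 0.22, 0.07 and 0.22 on slides 1, 2 and 3. At an unadjusted p under 0.05, 5 were higher, beside 3.17% of all genes. Rrm1, a subunit of ribonucleotide reductase, read -4.18, -4.19, -4.32, -4.20 and -4.14 in exposed ovaries and -4.65, -4.32, -4.46, -4.49 and -4.51 in controls, which touch at a single value, and stood at 0.28 ± 0.10. Rrm2, its partner subunit, was at 0.48 ± 0.19, Mcm3, part of the replicative helicase, at 0.42 ± 0.16 and Tpx2, a spindle factor, at 0.40 ± 0.17. The fifth was Cdkn1b, which encodes the cell cycle inhibitor p27, at 0.45 ± 0.20. Mki67, the usual marker of cycling cells, stood at 0.21 ± 0.15 with an unadjusted p of 0.174. The differences of the list's genes ran from -0.75 to 0.48 log2, so the widest was on the lower side.

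Of 34 measured genes of TGF-beta and BMP signalling, 12 lay above the control mean. At an unadjusted p under 0.05, beside 2.35% lower and 3.17% higher of all genes, 4 were lower and 0 higher. Among the ligands these were Bmp2, at -0.51, -0.76, -1.02, 0.11 and -0.04 in exposed ovaries and 0.71, 0.52, -0.08, 0.38 and 0.42 in controls, a difference of -0.83 ± 0.33 log2, and Inhba, given above. Among the receptors they were Bmpr2, a type II receptor, at -0.73 ± 0.27, and Acvr1, a type I receptor, at -0.35 ± 0.13. The list median was -0.09, and -0.10, 0.00 and -0.08 on the 3 slides.

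Casp6 and Fas were the members of the apoptosis list at an unadjusted p under 0.05, 1 lower and 1 higher, and the other 27 measured genes were not: 15 of 29 lay above the control mean and the median was 0.00 log2. Those counts are near the all-gene shares of 2.35% lower and 3.17% higher. Of 16 measured p53 targets 9 lay above and Fas was the single member at that level. The p53 list median was -0.23, -0.15 and 0.36 on slides 1, 2 and 3. Immediate early genes had 3 of 23 above and a median of -0.18, but -1.03, 0.14 and 0.11 on slides 1, 2 and 3, and control replicate 1 stood at 1.36 on the list summary and the other controls at -0.37 to 0.17. Fos read -3.74, -3.04, -3.08, -1.19 and -3.92 in exposed ovaries and 0.16, -1.74, -3.20, -2.27 and -2.57 in controls. Without control replicate 1 the list median was -0.02.

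Lists of genes known to answer this kind of compound in other organs had small medians here, but several listed members were not read. Cyp2b1, Ugt1a1 and Tiparp had no named probe, and Cyp3a23-3a1 and Cyp3a9 were too dim to enter the fit. Thrb, on the thyroid list, was too dim as well. Of 20 measured genes of the CAR, PXR and aryl hydrocarbon receptor pathways, the receptors among them, 12 lay above the control mean, the median was 0.06 log2, and 1 was higher at an unadjusted p under 0.05. That was Cyp1a1, the classic target of the aryl hydrocarbon receptor, which was well above background on 0 of 5 exposed arrays and 1 of 5 control arrays, so no fold is given. After quantile normalization its difference was about 0. Cyp1b1, a relative with the same regulator, stood at 0.83 ± 0.44. Of 12 measured genes of the thyroid hormone axis 6 lay above, with a median of 0.00 and 0 at that level. NRF2 targets and antioxidant enzymes had 21 of 26 above and a median of 0.12, with 0 at that level. Of 11 measured enzymes of DNA and histone methylation 6 lay above, and Kdm1a, a histone demethylase, was lower at -0.27 log2. Of 14 imprinted growth genes 7 lay above, and Plagl1, an imprinted zinc finger factor, stood at 0.34 with an unadjusted p of 0.0554.

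In lipid metabolism the sides balanced. Cholesterol synthesis and uptake had 12 of 24 genes above the control mean and 0 at an unadjusted p under 0.05, and lipid synthesis and oxidation had 7 of 17 above. Srebf1, the regulator of fatty acid synthesis, was 0.27 log2 higher without overlap, while Fasn, the synthase it controls in liver, stood at -0.55. Oxidative phosphorylation had 24 of 30 above with a median of 0.05 and ribosomal proteins 20 of 25 with 0.03. Those medians became 0.01 and -0.01 after quantile normalization. The insulin and IGF axis held 1 lower gene, Igfbp2, an IGF carrier, at -0.40, and Wnt signalling 1 higher gene, Sfrp1, a Wnt antagonist, at 0.64. Among matrix proteases Adamts19 was the single gene at that level, and among neuronal and ion channel genes they were Kcnk1 and Npy1r, a neuropeptide Y receptor, at -0.53. Notch signalling, the circadian clock, and glycolysis and hypoxia had 0.

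Markers of tissue beside the ovary varied between animals. Oviduct and ciliated epithelium genes had 2 of 13 above the control mean and a median of -0.22 log2, and their array summary ran from -0.75 to 0.59 in exposed ovaries and from -0.71 to 0.70 in controls. Adipocyte genes had 4 of 10 above and a median of -0.19, which was 0.92 on slide 2. Surface epithelium genes had 4 of 8 above, with Lgals7, a galectin of epithelia, at 0.45. Adrenal cortex genes had 2 of 4 above, with Ccn3, a matricellular protein, at -0.68. No oviduct or adipocyte marker had an unadjusted p under 0.05.

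**Figure D4:**
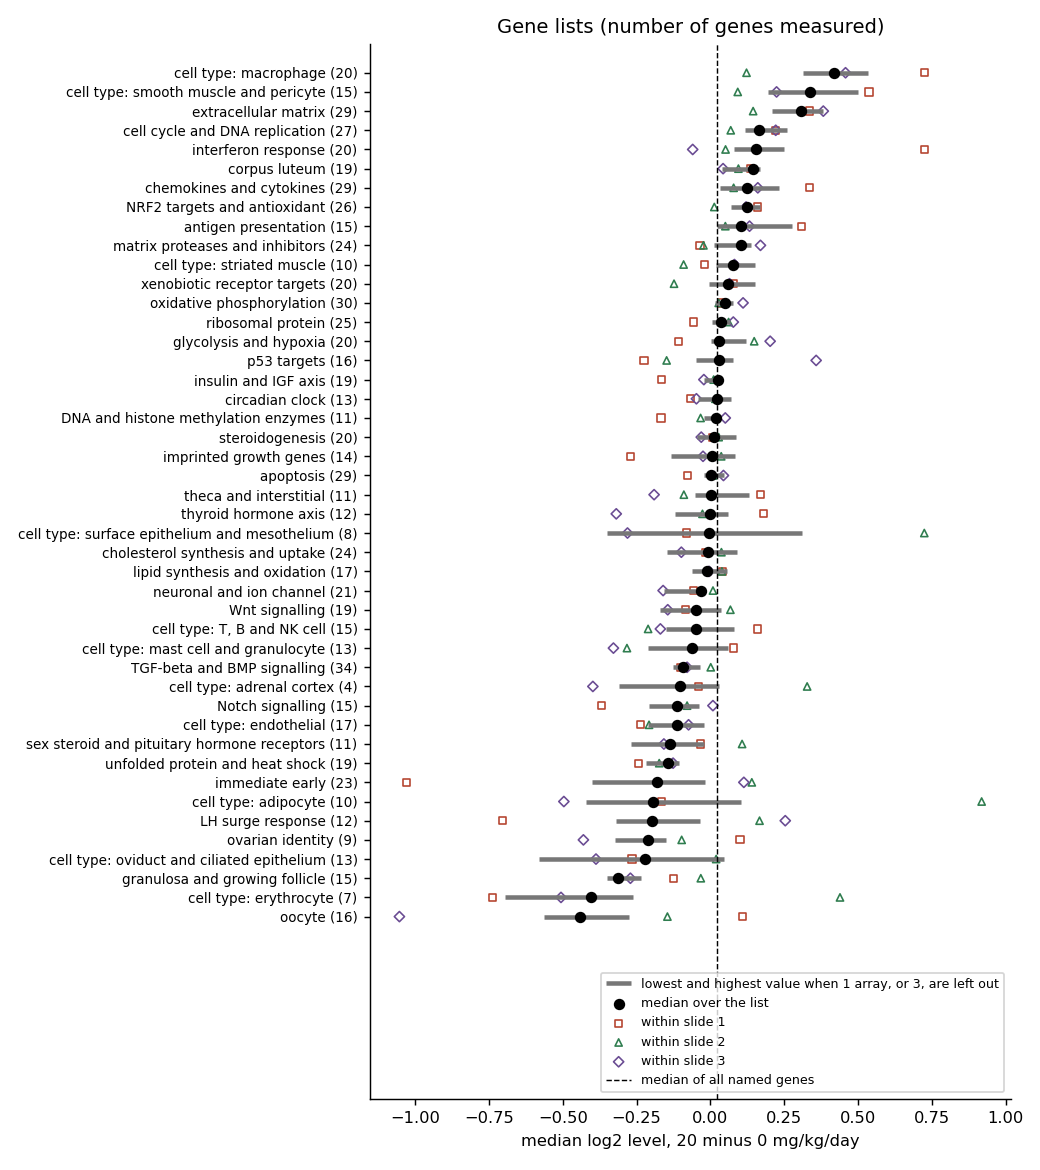
Each row is a gene list with its number of measured genes; the black point is the median log2 level at 20 minus 0 mg/kg/day over its genes, the grey bar the lowest and highest median when single arrays (or the 3 arrays low in Cyp17a1) were left out, and open symbols the medians within slides. The macrophage, smooth muscle, matrix and cell cycle lists lie right of the dashed all-gene median on every slide, and the chaperone and granulosa lists left of it. Other lists also keep to the same side on every slide. Among them are corpus luteum, antigen presentation, chemokines and oxidative phosphorylation to the right, and endothelial, Notch and TGF-beta to the left. The oocyte list lies far left on slide 3 and the immediate early list on slide 1.

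For most genes the values varied less among the 5 exposed than among the 5 control ovaries. The SD between animals was larger at 20 mg/kg/day in 4834 of 12838 genes (37.7%), and its median was 0.228 log2 in exposed and 0.272 in control ovaries. Leaving out single animals moved the share between 33.4% and 44.6%, the highest of these without control replicate 5. Counted against the median of its own group, an exposed array had 392, 591, 213, 424 and 457 genes at least a doubling or halving away, and a control array 517, 254, 597, 400 and 701. The counts of the groups overlap, and the difference in spread was not tested over animals. The groups were also laid out differently over the slides, and the exposed arrays had the higher floor. The part of either in the spread was not tested.

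The other doses share the 5 control animals, so their differences are given side by side with no test of likeness. In the order 0.06, 20, 60 mg/kg/day, Casp6 stood at -0.37, -0.35 and -0.11 log2. Isyna1 stood at -0.37, -0.57 and -0.33, and Kcnk1 at -0.29, -1.67 and -0.59. Tnnt2 stood at 0.07, 0.62 and 0.63, Scara5 at 0.27, 0.84 and 0.79, and Tnfrsf11b at -0.71, -1.16 and -1.08. Bco2 stood at 0.49, 0.85 and 0.77 and Lyrm2 at 0.29, 0.41 and 0.31. The difference of 60 minus 20 mg/kg/day was 1.08 for Kcnk1, 0.25 for Isyna1 and 0.24 for Casp6, and under 0.10 in size for the other 5 of these genes. As the genes were picked for their values at 20 mg/kg/day, no test is given on these gaps.

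In the same order of doses, the macrophage list had a median of 0.27, 0.42 and 0.55 log2, and the cell cycle median 0.02, 0.16 and 0.31. The matrix median was -0.02, 0.31 and 0.14, the smooth muscle median 0.00, 0.34 and 0.00 and the granulosa median -0.23, -0.31 and -0.12. The chaperone median was -0.10, -0.14 and -0.06. In it Hspa5 stood at -0.02, -0.27 and -0.11 and Dnajb9 at -0.05, -0.37 and -0.25, while Hsph1 stood at -0.58, -0.54 and -0.45. Amh stood at -0.55, -0.96 and -0.37, and Col1a1 at 0.11, 0.80 and 0.41.

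**Figure D5:**
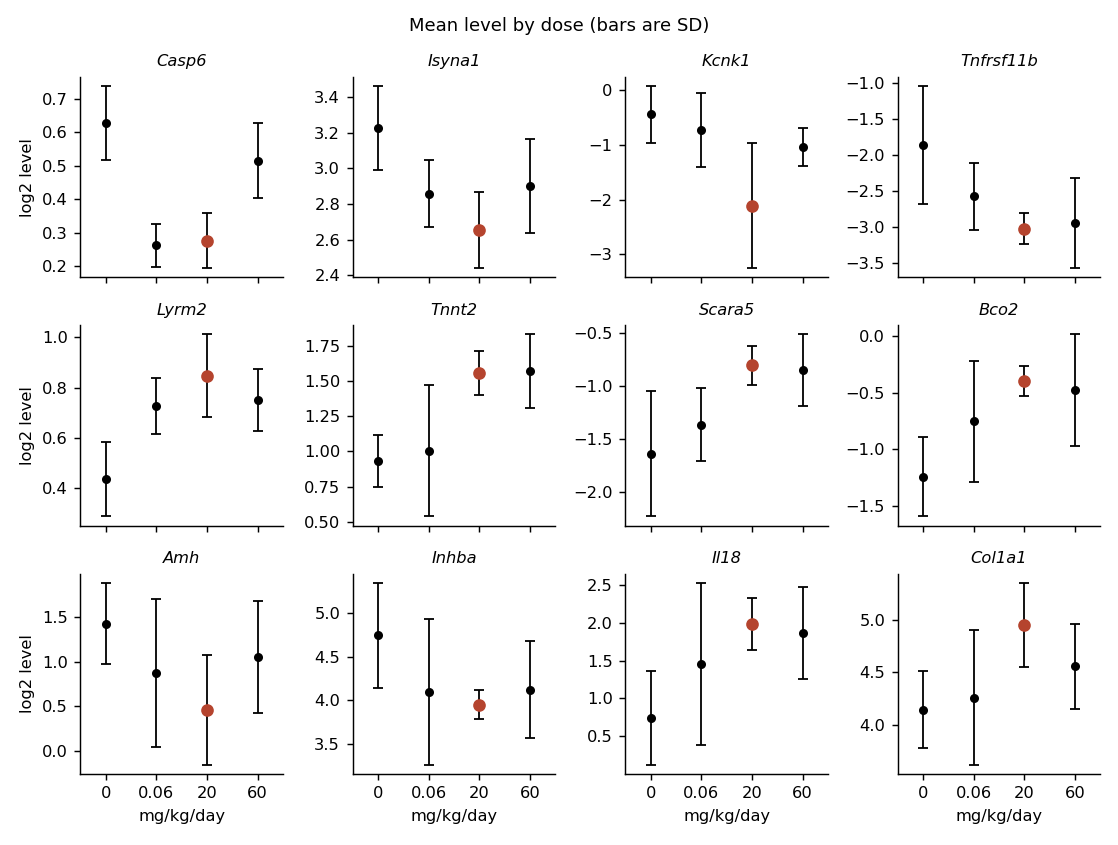
Mean log2 level with SD (vertical axis) by dose in mg/kg/day (horizontal axis: 0 with 5 animals, 0.06 with 4, 20 with 5 in red, 60 with 6). Kcnk1, Tnfrsf11b, Amh, Il18, Col1a1, Isyna1, Lyrm2, Scara5 and Bco2 have their mean farthest from the control at 20 mg/kg/day, the last pair by little over 60 mg/kg/day. The leading genes among them were picked for their values at 20 mg/kg/day. Casp6 is as low at 0.06 as at 20 mg/kg/day.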

How the data were processed

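Each array held labelled RNA of 1 animal's ovary. Spot intensity was deposited by the authors as Agilent Feature Extraction 11.5.1.1 processed signal, per the file headers (protocol GE1_1105_Oct12). The authors' series table of log2 values, with column medians of -0.0712 to 0.0797 and r of 0.944 to 0.990 with the scanner values, was an alternative; its centring baseline is unknown. Levels were log2 signals minus each array's 75th percentile, with flagged outlier spots left out and spots of a probe averaged. A probe entered the fit if 4 or more of the 20 arrays had a spot of it well above background (23834 of 30367), and the brightest probe stood for a gene. Accessions named 18758 probes through the RefSeq table of GRCr8, 0 with several symbols, and 11609 stayed unnamed. Tests were limma 3.58.1 in R 4.3.3, 1 mean per dose over all 20 arrays, Benjamini-Hochberg adjusted over all probes, checked on simulated data. Other steps used Python 3.11.15 with pandas 2.3.3, numpy 2.4.6 and matplotlib 3.10.9. The number of arrays limits the precision.

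The 45 gene lists, the genes and the rules were chosen with earlier results of these data known. Named genes are the 24 of smallest p, the 8 highest and 8 lowest differences without overlap among genes well above background on all 10 arrays, the 3 members of smallest p in each list and preset key genes. List members at an unadjusted p under 0.05 or without overlap were added after their values were seen. The labels describe independent litters. Same-numbered animals were checked for pairing by correlation and showed none, though slide enters that check, so pairing is not excluded. Fits with other scaling, filters, slide blocks, weights or arrays left out are in the closing section. An array at 0.06 mg/kg/day that the submitters removed was not analysed here. A withheld item is not reported here.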

Additional observations from a re-analysis of the deposited data

Results flagged for a closer look

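Among 222 sets of 5 animals (a named gene or a list summary in a dose group), 11 held an animal whose distance to its nearest neighbour was over 0.71 of the group's range; chance gives such a set about 1 time in 20. Among genes, RT1-T24-2 read -8.26 in control replicate 3, with the other controls at -7.11 to -6.68. Control replicate 1 stood apart for Bco2, at -1.87 against -1.14 to -1.04, for Pde6a, at -6.11 against -5.34 to -5.17, and for Efs, at 0.796 against -0.465 to -0.104. Control replicate 5 stood apart for Plagl1, at -1.68 against -2.23 to -2.09, and for Akr1c3, the present symbol of the progesterone-degrading enzyme gene Akr1c18, at -4.23 against 5.95 to 7.02. Cyp17a1 read -2.62 in control replicate 3 and 2.69 to 3.47 in the other controls.

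Among list summaries, the oocyte list stood at -0.625 in exposed replicate 5, with the other exposed animals at -0.175 to -0.0604. The corpus luteum list stood at 0.171 in exposed replicate 3 against 0.0115 to 0.0433, and the TGF-beta and BMP list at 0.179 in exposed replicate 4 against -0.147 to -0.0731. The list of matrix proteases and inhibitors stood at 0.163 in control replicate 3, with the other controls at -0.133 to -0.0508.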

How the results depend on the processing

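In limma, 0 probes had an adjusted p under 0.05 under all 23 alternatives, whose lowest adjusted p ran from 0.0924 without a filter on dim probes to 1.00; without control replicate 3 it was 0.278. The count at an unadjusted p under 0.05, 1088 as reported, was 2878 without the filter, 912 to 1628 under the other whole-data settings, and 574 (without control replicate 1) to 2173 (without control replicate 3) when single arrays were left out, with 1686 without exposed replicate 4. The share of these that were higher was 84.6% without the filter, 73.7% with normexp and 38.5% after quantile normalization (492 higher and 785 lower), and 51.1% to 65.8% otherwise. The median of all probes was 0.03 log2, 0.06 with normexp and -0.01 after quantile normalization. Probes without overlap numbered 141, 603 with normexp, 745 without the filter and 197 to 644 when single arrays were left out. Fewer arrays make overlap rarer by construction; the cause of the other moves was not tested.

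Among 188 named genes, 15 of 4315 values changed sign, over 9 genes, with values within single slides not counted. Cyp1a1 stood at -0.0018 after quantile normalization, and Mcpt1 at 0.0199 and Faslg at 0.0439 with normexp. Cyp17a1 stood at 0.0161 and Cyp11a1 at 0.153 without the 3 arrays low in Cyp17a1, and Cyp11a1 at 0.0162 with slides as a block and 0.0436 with that block on the 10 arrays alone. With single arrays left out, Egln3 ran from -0.873 to 0.0564 (the highest without control replicate 1), Akr1c3 from -0.768 (without control replicate 5) to 2.04, Dio1 from -0.0486 (without control replicate 3) to 0.264, Hsd3b1 from -0.0115 (without control replicate 4) to 0.071 and Cyp11a1 from -0.0975 to 0.0749 (without exposed replicate 5). Of 45 lists, 22 kept the sign of their median under all 23 alternatives. Values within single slides were again not counted, and the oocyte, interferon response and immediate early medians differed in sign between slides. A fit with the replicate number as a replicate block gave 1139 probes at an unadjusted p under 0.05. Same-numbered animals correlated at -0.212 to 0.309 in their deviations, and exposed replicate 2 with control replicate 3, both on slide 2, at 0.571. Slide enters these correlations, so they show no pairing by number but cannot exclude it. Normexp on the mean signal was planned and not run, as only the median signal was at hand; normexp on that, the slide block on 10 arrays and the 3 arrays left out were chosen after seeing the data. Block, weighted and 10-array fits give no count of probes without overlap. Dim probes have a raised floor in exposed arrays, which limits what the unfiltered counts show.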
